A study of Mus musculus with 2 samples.

Results

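FoxO3 occupancy at 3 genes of differentiated muscle, Ckm, Acta1 and Des, was read from lists of chromatin immunoprecipitation sequencing (ChIP-seq) peaks. A peak belonged to a gene when its summit, the base of highest signal, lay in the gene or within 20 kb of either end on the mouse build mm9. That rule took 24 of 45958 peaks in both lists together. All 24 were among the 45457 peaks of myotubes, and 0 were among the 501 peaks of myoblasts. Acta1 and Des had 12 myotube peaks each, and Ckm had 0.

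The material was C2C12, an established mouse myoblast line whose cells leave the cell cycle and fuse into multinucleated myotubes when serum is lowered. For the myoblast library, chromatin was taken at hour -24, the day before the switch to differentiation medium, from cells in growth medium with 10% fetal bovine serum. For the myotube library it was taken at hour 72 of differentiation medium, which holds 2% horse serum. The labels name one anti-Foxo3 antibody for both libraries and chromatin sonicated to between 100 and 300 nt, and the source label reads C2C12 myoblasts for both, so the hour alone tells the groups apart. Each group was 1 library, no value below has a replicate error, and no test between the conditions was possible. Expression was not part of these files, so the state of the cells could not be checked against muscle markers.

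FoxO3 is a forkhead transcription factor that insulin and growth factor signalling keeps out of the nucleus through phosphorylation by Akt. In skeletal muscle it is best known for activating genes of protein breakdown in atrophy. Ckm encodes the muscle creatine kinase, which regenerates ATP from creatine phosphate. Acta1 encodes skeletal alpha-actin, the actin of the sarcomere's thin filaments. Des encodes desmin, the intermediate filament protein that ties myofibrils to each other and to the cell membrane. These genes are classical targets of the myogenic programme: MyoD binds E-box sequences, MEF2 binds an AT-rich motif, and serum response factor binds the CArG box.

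The promoter sequences are shown because 2 of the genes had a peak within 500 bp of the approximate start and the other had none. That distance does not place a peak on the printed bases. Each is the 250 bases before the RefSeq transcription start on the coding strand, 5′ to 3′. They come from RefSeq on GRCm38.p6, a different build from that of the peaks, and all 3 genes were matched by symbol. Capitals mark E-boxes (CANNTG) and CArG boxes. The windows lie on GRCm38.p6 at chr7:19410844-19411093 on the plus strand for Ckm, chr8:123894776-123895025 on the minus strand for Acta1 and chr1:75360042-75360291 on the plus strand for Des.
Ckm: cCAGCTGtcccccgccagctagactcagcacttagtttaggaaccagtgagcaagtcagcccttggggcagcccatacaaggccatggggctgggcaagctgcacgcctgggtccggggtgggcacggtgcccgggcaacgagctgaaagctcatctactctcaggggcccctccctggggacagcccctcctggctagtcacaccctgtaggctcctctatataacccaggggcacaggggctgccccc
Acta1: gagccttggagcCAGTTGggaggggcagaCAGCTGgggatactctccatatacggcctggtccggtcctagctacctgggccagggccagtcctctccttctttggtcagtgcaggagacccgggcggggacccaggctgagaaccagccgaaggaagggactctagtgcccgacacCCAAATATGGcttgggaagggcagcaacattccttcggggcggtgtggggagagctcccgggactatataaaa
Des: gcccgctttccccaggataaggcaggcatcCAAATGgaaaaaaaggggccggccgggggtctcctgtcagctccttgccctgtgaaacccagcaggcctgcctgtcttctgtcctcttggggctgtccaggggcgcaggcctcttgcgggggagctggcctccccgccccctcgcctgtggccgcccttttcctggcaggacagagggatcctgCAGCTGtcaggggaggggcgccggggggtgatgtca

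Each promoter held 1 copy of CAGCTG, an E-box form bound by MyoD. It began 249 bases before the start in Ckm, 221 in Acta1 and 36 in Des. CAGCTG was present in 13.0% of all 32851 RefSeq promoter windows of the same length, searched on both strands. Counting every CANNTG, Ckm held 1 match and Acta1 and Des held 2 each. Some match occurred in 66.2% of all windows, and 31.8% of them held at least 2. The other matches were CAGTTG in Acta1, 238 bases before the start, and CAAATG in Des, 220 bases before it. A CArG box, CCAAATATGG, began 73 bases before the start of Acta1. This motif was found in 1.47% of all windows and in neither of the other two promoters.

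Forkhead letters were not found in these windows. GTAAACA and ATAAACA, searched on both strands, had 0 matches in each of the 3 promoters, against 3.17% and 4.16% of all windows with a match. The MEF2 motif also had 0 matches, against 2.92% of all windows. The promoters were rich in G and C, at 64.8% in Ckm, 61.2% in Acta1 and 67.2% in Des, where the median of all windows was 52.4%. A match is a description of letters, and the absence of one says only that these letters are not in this stretch.

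The gene spans used to place the peaks were approximate: about 19996500 to 20007500 on chromosome 7 for Ckm (plus strand), 126415600 to 126418800 on chromosome 8 for Acta1 (minus strand) and 75356900 to 75364500 on chromosome 1 for Des (plus strand), all on mm9. They differed in length from the RefSeq genes on GRCm38.p6 by 0.5 kb, 0.2 kb and 0.7 kb respectively. Distances are given to 0.1 kb. A difference in length does not measure the error of a start or an end, which is unknown and may be larger or smaller than these amounts. A summit within 500 bp of the start is called a promoter peak, and summits near that limit could change class with the start. Farther summits are called upstream, gene body or downstream in the direction of transcription. Peaks were not compared with exons or introns, because no mm9 annotation was used here.

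**Figure D1:**
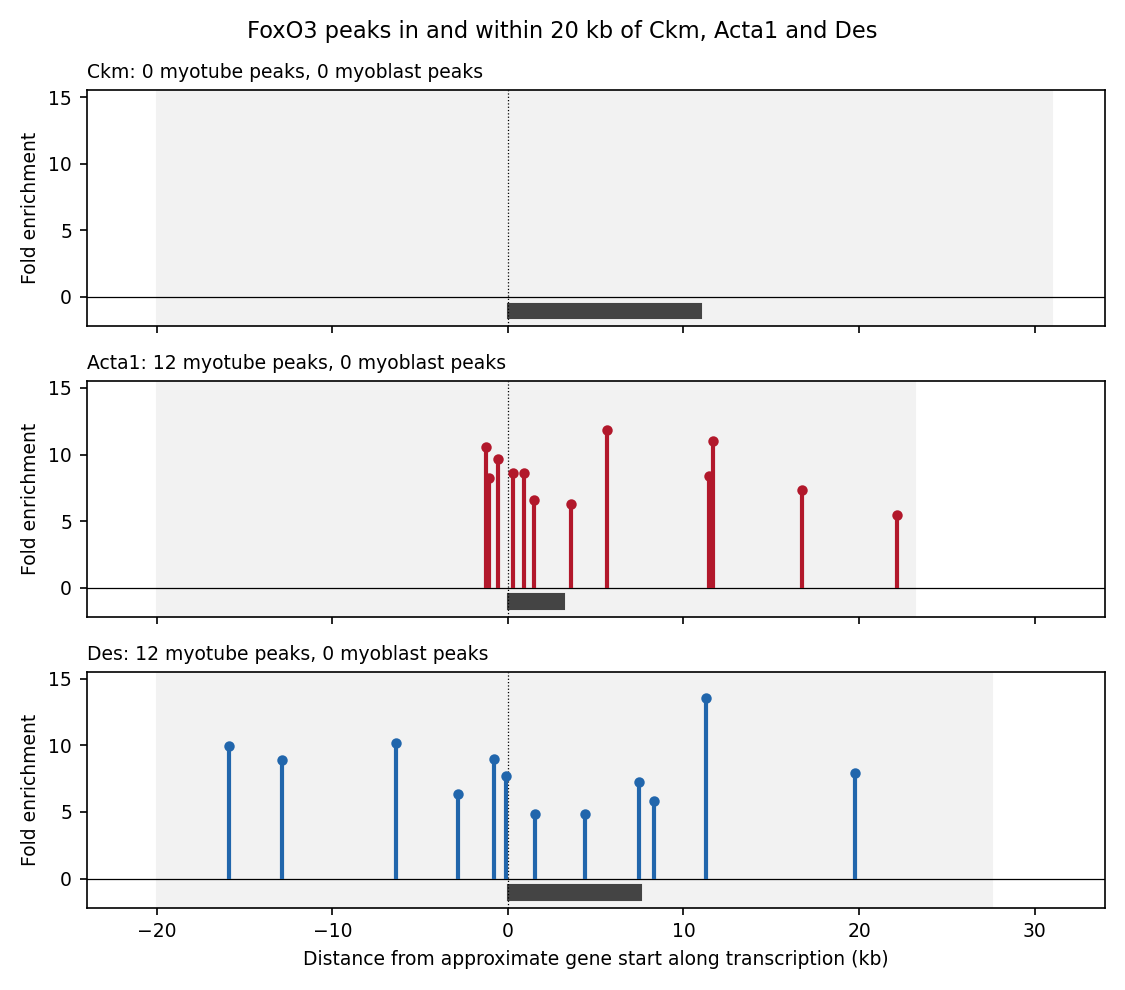
Myotube FoxO3 peaks at Ckm, Acta1 and Des; the x axis is distance from the approximate gene start along transcription (kb), the y axis is the authors' fold enrichment over local background, each stem is 1 peak, dark bars are the gene spans and shading is the window searched. The Ckm window is empty, Acta1 has 6 peaks packed around its start, and the 12 Des peaks are spread from 15.9 kb before the start to 12.2 kb past the end.

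Of the 3 genes, Acta1 had the most compact group of peaks around its start. Of the 12 Acta1 peaks, 3 were upstream, 1 was at the promoter, 2 lay in the gene body and 6 lay downstream (exact Poisson 95% interval of the total 6.2 to 21, counting error only). Of these, 6 fell within 2 kb of the start over a stretch of 2.7 kb. At each of 3 Acta1 summits, 6 summits lay within 2.5 kb on either side, itself included. At least 6 were found around 3.78% of all myotube peaks.

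Peaks are described by 2 measures: the fold enrichment given by the authors' caller, and the pileup, the number of reads stacked at the summit, which was recovered from the fold and the p-value. The caller's local background was recovered in the same way, and its most frequent value, called the floor, was 1.51 reads in the myotube list. The Acta1 promoter peak ran from 126418295 to 126418582 with its summit 0.3 kb past the start. By the approximate start of 126418800 on the minus strand, the whole peak lay past the start. By that start it did not cover the Acta1 bases printed above, which lie before the RefSeq start. As the error of the approximate start is unknown, the peak could not be firmly placed outside them. The peak had a fold of 8.59 and 13 reads over a background of 1.51 reads, at a −log10 q-value of 6.17. Its width of 288 bp was the largest of the 12 Acta1 peaks, and its fold was the median of the whole list, 8.59.

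The 3 upstream Acta1 peaks were close to the start. Nearest was the peak from 126419250 to 126419483, with its summit 0.6 kb before the start, a fold of 9.67, 20 reads and a −log10 q-value of 10.8. Beyond it, at 1.1 kb before the start, the peak from 126419768 to 126419913 had a fold of 8.24 and 13 reads. Only 76 bp separated it from the outermost upstream peak, from 126419990 to 126420122, with a summit 1.3 kb before the start, a fold of 10.57 and 16 reads. Farther upstream the list held nothing up to the edge of the window. The next upstream summit lay 30.0 kb before the start, with a fold of 16.44 and 85 reads, more than any Acta1 peak.

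The 2 gene body peaks of Acta1 were narrow and shallow. One, from 126417843 to 126417971, had its summit 0.9 kb past the start and the same fold and pileup as the promoter peak, 8.59 and 13 reads. The other, from 126417262 to 126417383, lay 1.5 kb past the start, with a fold of 6.61, 10 reads and the smallest width in the list, 122 bp.

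Downstream of Acta1, 6 summits lay between 0.4 and 19.0 kb past the gene's end. The strongest Acta1 peak by fold was among them, from 126413109 to 126413340, 2.4 kb past the end, with a fold of 11.86 and 19 reads. A pair 98 bp apart followed at 8.2 and 8.5 kb past the end. The member from 126407036 to 126407161 had the most reads of any Acta1 peak, 23, with a fold of 11.05 and a −log10 q-value of 13.72. Its neighbour from 126407260 to 126407492 had a fold of 8.42 and 17 reads. The 3 remaining peaks, at 0.4, 13.6 and 19.0 kb past the end, had folds of 6.28, 7.35 and 5.43. In the RefSeq table Gm29773, a long noncoding RNA, and Nup133, which encodes a nuclear pore protein, lie on the upstream side of Acta1. LOC115486976 is also listed within 20 kb of Acta1. The distances of the Acta1 peaks to these 3 neighbours were not computed. By position, Acta1 pileups ran from 13 to 20 reads upstream, 10 to 13 at the promoter and in the gene body, and 12 to 23 downstream. The upstream range met that of the promoter and gene body at 13 reads, and the downstream range overlapped both.

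At Des the peaks were spread more widely, with 5 upstream, 1 at the promoter, 3 in the gene body and 3 downstream (Poisson interval 6.2 to 21). Within 2 kb of the start there were 3. The Des promoter peak ran from 75356780 to 75356901, with its summit 0.1 kb before the start. It had a fold of 7.67, 12 reads over a background of 1.56 and a −log10 q-value of 5.16. Its width was the smallest in the list, 122 bp. With a start of unknown error, this peak could not be placed inside or outside the Des promoter sequence printed above, and its class rests on the approximate start.

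The 5 upstream Des peaks were deeper than those at the promoter and in the gene body. Closest was the peak from 75356020 to 75356181, 0.8 kb before the start, with a fold of 8.98, 17 reads and a −log10 q-value of 8.58. The desmin gene is known for an upstream muscle enhancer with E-box and MEF2 sites, but its mm9 position was not used here, so no peak is assigned to it. The peak from 75354005 to 75354280, 2.9 kb before the start, had 23 reads but a fold of only 6.35, because its background of 3.62 reads was the highest of the 24. At 6.4 kb before the start, the peak from 75350451 to 75350590 had a fold of 10.15 and 21 reads.

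The distal pair upstream of Des completed the set. The summit 12.9 kb before the start, in a peak from 75343942 to 75344063, had the most reads of all 24 peaks, 28, and the highest −log10 q-value, 14.47, at a fold of 8.88 over a background of 3.15 reads. The summit 15.9 kb before the start lay in the widest of the 24, 409 bp, from 75340943 to 75341351, with a fold of 9.94 and 19 reads. Beyond it, the next upstream summit of the list was 111.9 kb before the start.

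Inside desmin the peaks were weak. The peak from 75358354 to 75358630, 1.5 kb past the start, had a fold of 4.83 and 15 reads over a background of 3.11. The peak from 75361315 to 75361491, 4.4 kb past the start, also had a fold of 4.83, with 10 reads, and the lowest −log10 q-value of the 24, 2.55. The peak from 75364288 to 75364488, 7.5 kb past the start and 0.1 kb before the end, had a fold of 7.21 and 11 reads. The 5 upstream peaks held 17 to 28 reads and the promoter and gene body peaks 10 to 15, so these ranges did not overlap. Their −log10 q-values did not overlap either, at 8.58 to 14.47 upstream and at most 5.16 in the others. By fold the groups did overlap, at 6.35 to 10.15 upstream, 7.67 at the promoter and 4.83 to 7.21 in the gene body. The 3 downstream peaks overlapped both groups, with 9 to 21 reads and −log10 q-values of 2.82 to 14.18. These are peaks of 1 library, and the split in reads and q-values is a description.

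Downstream of Des, the summit 0.7 kb past the end had the fewest reads of the 24, 9, at a fold of 5.8. As the RefSeq gene is 0.7 kb longer than the span used here, this summit cannot be placed inside or outside the gene. The peak from 75367975 to 75368254, 3.7 kb past the end, had the highest fold of all 24, 13.54, with 21 reads over 1.55. The last, 12.2 kb past the end, had a fold of 7.93 and 12 reads. In the order of the RefSeq table the genes that follow Des are Gm15179, a long noncoding RNA, and Speg, which encodes a kinase of striated muscle. Both lie within 20 kb of Des in that table, and the distances of the downstream peaks to them were not computed.

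**Figure D2:**
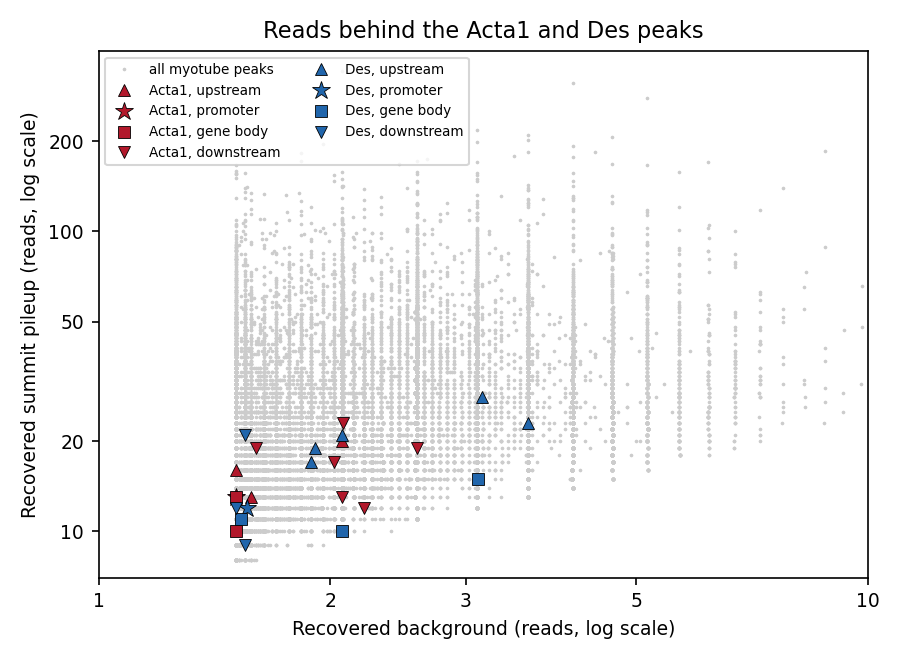
Reads behind the Acta1 and Des peaks: recovered background (x axis, reads, log scale) against recovered pileup at the summit (y axis, reads, log scale), with all other myotube peaks in grey and 61 of 45457 outside the axes. The Des upstream triangles, with 17 to 28 reads, lie above the Des promoter and gene body symbols, with 10 to 15; the Acta1 promoter symbol is hidden by a gene body peak of the same values, 13 reads over 1.51.

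Ckm had 0 peaks in its window of 51 kb in either list, neither at the promoter nor in the upstream region that holds its well-studied muscle enhancer. The myotube summits nearest to it were 49.1 kb before its start (fold 8.22, 17 reads) and 21.5 kb past its end (fold 7.25, 15 reads), just outside the margin. Between them lay 81.5 kb without a listed summit. In the RefSeq table the nearest protein-coding neighbours of Ckm are Klc3, a kinesin light chain gene, and Mark4, a microtubule affinity kinase gene. A list shows only what passed the caller's threshold: at floor background, the myotube peak with the fewest reads had 8. Weaker signal at Ckm would not have been listed, and the reads there were not analysed here.

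**Figure D3:**
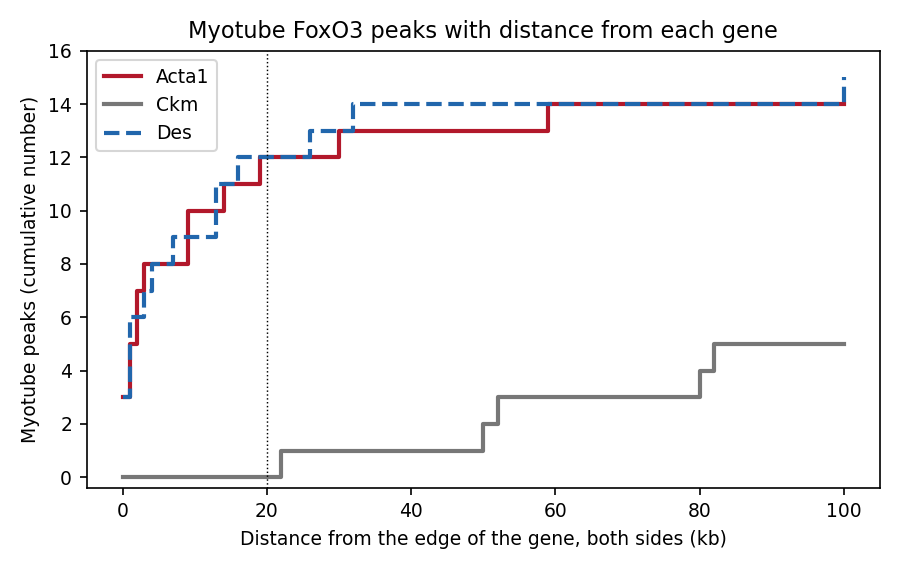
Cumulative number of myotube peaks (y axis) with distance from the edge of each gene on both sides (x axis, kb); the dotted line marks the margin of 20 kb. Acta1 and Des reach 12 peaks within it and 14 and 15 within 100 kb, while Ckm stays at 0 and reaches 5.

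An empty window was common and a window of 12 was rare. When the genome was cut into 50 kb tiles, 66.3% of 52706 tiles held no myotube peak, and 71.9% of the 3051 tiles on chromosome 7, where Ckm lies. Stretches between neighbouring summits at least as long as that around Ckm made up 74.8% of the length spanned by the list. By number they were only 12.7% of the stretches between neighbouring summits, and the median stretch was 11.5 kb. An empty window is thus shared with most tiles, which were counted whether or not they hold genes. At least 12 myotube peaks were held by 230 tiles, or 0.436%. On chromosome 8, with Acta1, that share was 0.381%, and on chromosome 1, with Des, it was 0.863%. The windows of Acta1 and Des, 43.2 and 47.6 kb, were slightly shorter than a tile. Unlike tiles, they are centred on genes, and tiles centred on other genes were not examined.

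**Figure D4:**
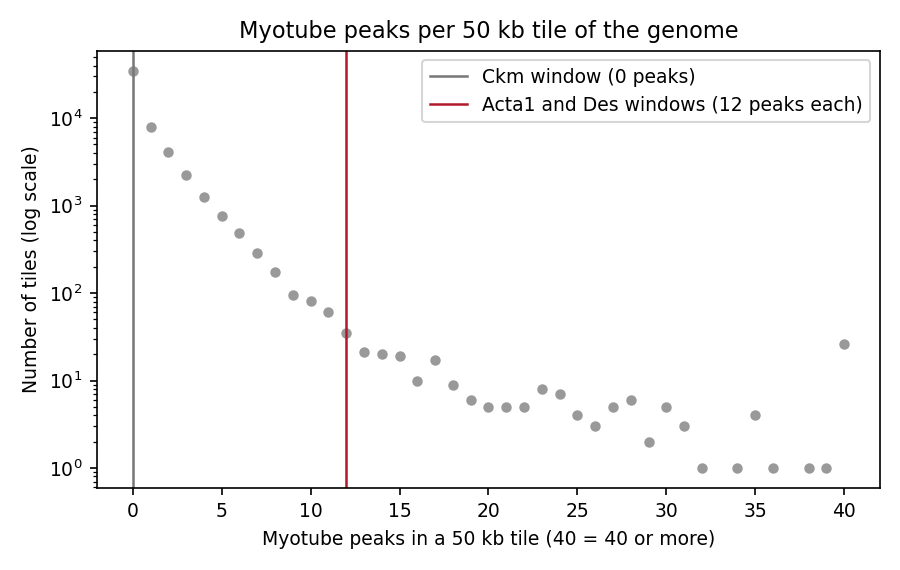
Number of 50 kb tiles (y axis, log scale) by the number of myotube peaks they hold (x axis; the last point pools 40 or more). The grey line marks the Ckm window at 0, the most frequent value, and the red line marks the Acta1 and Des windows at 12, a number reached by 0.436% of tiles.

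Single peaks at Acta1 and Des were of middling to low strength in the myotube list. The median fold was 8.5 over the 12 Acta1 peaks (5.43 to 11.86) and 7.8 over the 12 Des peaks (4.83 to 13.54), against 8.59 over the whole list, with quartiles of 6.92 and 11.6. Median pileups were 14.5 and 16 reads, against 18. The median −log10 q-value of the 24 was 7.16, against 8.51 over the list. Their highest, 14.47, was below the upper quartile of the list, 14.64. A fold of at least 10 was reached by 5 of the 24 (20.8%, Wilson 95% interval 9.24% to 40.5%), against 35.4% of all myotube peaks. A −log10 q-value of at least 5 was reached by 17 of the 24 (70.8%, 50.8% to 85.1%), against 82.6%, and one of at least 10 by 7 (29.2%, 14.9% to 49.2%), against 41.4%. All of these shares were below those of the list, and each interval included the share in the list. The intervals cover counting error only, and peaks of 1 locus are not independent. The median width of the 24 was 166 bp, against 186 bp over the list. None of the 24 had a background over 3 times the floor (0 of 24), which 3.58% of the list had.

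No site at these genes was listed in myoblasts. The myoblast list had 0 peaks in the windows of Ckm, Acta1 and Des, so 0 of the 24 myotube peaks overlapped a myoblast peak. The share of all myotube peaks with such an overlap was 0.224%, and only 0.903% of the 50 kb tiles held a myoblast peak, so that a count of 0 is what most windows of the genome gave. The nearest myoblast peak to Des lay 70.0 kb past its end, with a fold of 20.28 and 9 reads over a background of 0.44. For Acta1 the nearest was 784.9 kb away (fold 20.18, 11 reads), and for Ckm it was 4.21 Mb away (fold 22.53, 10 reads). Folds of the 2 lists rest on different backgrounds, with floors of 0.44 and 1.51 reads, and whether signal like that of the 24 peaks would have been listed in myoblasts was not tested. The depth of either library is unknown, and lower occupancy in myoblasts cannot be told apart from a shallower or less enriched library.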

How the data were processed

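FoxO3 ChIP-seq peaks came from 1 C2C12 library at hour -24 and 1 at hour 72. The submitters' processing notes list MACS2 2.1.0 and mm9; which aligner, control library, duplicate handling and threshold were used is not given in the sources used here. The lists are in the narrowPeak layout, per the file headers. The authors deposited for every peak a fold enrichment, which is a ratio, the p-value and q-value as −log10, and a score that was left unused. The peak values are the authors' own and serve only within their list.

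The members and lists were chosen with earlier results of these data known. Gene spans came from the rule that defines the set, and strands from RefSeq (GRCm38.p6). The named items are the 3 genes and every peak in their windows. Peak names ran on without a break in both lists. Pileup was the whole number whose Poisson tail, with background equal to pileup over fold, gave the deposited p-value to within 0.02 (log10), allowing for the rounding in the fold; all 501 and 45457 peaks had one. The steps were tested on simulated data. No read totals accompany the lists, so depth is unknown. No test between conditions was made. Alternatives were other margins, q-value thresholds, promoter widths, tile sizes, overlap rules, ranking and motif windows. Python 3.11.15, numpy 2.4.6, pandas 2.3.3, scipy 1.17.1, statsmodels 0.14.6 and matplotlib 3.10.9 were used.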

Additional observations from a re-analysis of the deposited data

How the results depend on the processing

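Of 94 alternative values, 83 stayed within 1.5 times of the reported value or equal to it, and 11 moved. Many of the 83 were counts of 0 that stayed 0, and some of these could not change. The 83 is therefore no measure of stability. A margin of 50 kb gave Ckm 2 myotube peaks. A −log10 q-value of at least 10 left 3 peaks at Acta1 and 4 at Des, and one of at least 5 left 1 gene body peak at Acta1 and 0 at Des. With a promoter of 250 bp on either side of the start Acta1 had 0 promoter peaks, and with 1 kb it had 3, leaving 1 in the gene body, while Des had 2. Tiles of 100 kb held 12 or more peaks in 1.7% of cases, which moved the share for both Acta1 and Des, since they are longer. The other 9 moves follow by construction from the peaks that a threshold or distance removes, adds or reassigns. A margin of 50 kb could have added myoblast peaks, and it left 0 at the 3 genes. The margin of 10 kb, counting by peak edges, both stricter thresholds and both other overlap rules also gave 0. With no myoblast summit within 50 kb, and no myoblast peak wider than 1859 bp, these settings could give nothing else. They therefore say nothing more about the absence. Within 100 kb Des had 1 myoblast peak. Each value rests on 1 library per condition, and summit pileups of 9 to 28 reads limit the precision of the 24 peaks. No paired analysis was possible because the myoblast and the myotube group hold 1 library each.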
